A study of Mus musculus with 9 samples.

Results

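The T cell receptor complex and its coreceptors were examined in mouse liver by following 10 genes, Cd3d, Cd3e, Cd3g, Cd247, Cd4, Cd8a, Cd8b1, Cd2, Cd5, and Lck, which were taken by name from the 24341 genes of the deposited table. All 10 were in the table, and all 10 had a mean of at least 0.1 FPKM (sequenced fragments scaled to the length of the gene and the size of the library), the level required for testing, which 13807 genes met. The mice were wild-type C57BL/6 animals. Livers were taken 48 hours after FGK45, an antibody that switches on the receptor CD40, from 3 mice numbered 2, 5, and 9 (anti-CD40). The 6 control mice, numbered 3, 4, 7, 8, 11, and 12, carry PBS as their treatment label, and no age or sex is given in the labels. RNA of whole liver was sequenced from its 3′ end, and no tumor or transgene is named in the labels of any mouse.

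T cells recognize antigen through a receptor whose variable chains have almost no cytoplasmic tail. The CD3 chains (encoded by Cd3d, Cd3e, and Cd3g) and the zeta chain (Cd247) carry the signal inward, and the kinase Lck starts it by phosphorylating them. CD4 and CD8 are coreceptors that bind the MHC molecule beside the receptor and bring Lck with them, CD4 on helper and regulatory T cells and CD8 on cytotoxic T cells. CD2 is an adhesion receptor that binds CD48 in mice, and CD5 dampens receptor signals. The liver normally holds resident and passing T cells, natural killer (NK) cells, and natural killer T cells, so transcripts of these genes in whole liver come from a minority of its cells. NK cells also use Cd247, Lck, and Cd2, and CD8 alpha chains are found on a class of dendritic cells.

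The 9 libraries appeared similar in depth by an indirect measure. The value of 1 sequenced read, inferred from the steps between low FPKM values, lay between 0.884 and 1.15 times the geometric mean of all mice. Any scaling between libraries in the deposited FPKM is part of this value, and total reads were not compared. The serum amyloid genes Saa1, Saa2, and Saa3 together accounted for 25.4% to 25.9% of all FPKM after anti-CD40 and for at most 0.380% in controls. A pair of livers stood apart in transcripts of other cells. In anti-CD40 mouse 5, 12 genes of the exocrine pancreas summed to 1146 FPKM, against 1.23 to 9.65 in the other mice, and control mouse 4 had the highest sum of erythroid genes at 50532 FPKM. Without both of these mice, 9 of the 10 T cell genes were again called higher, and Cd4 again was not. No label says that the mice were housed, treated, or sequenced in batches.

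The CD3 genes lie side by side. On mouse chromosome 9 (build mm10), Cd3g (44969572 to 44980431, minus strand), Cd3d (44981786 to 44987052, plus strand), and Cd3e (44998743 to 45009590, minus strand) span 40019 bases. Cd3g and Cd3d are read in opposite directions from starts 1354 bases apart. On chromosome 6, Cd8b1 (71322812 to 71337451, plus strand) lies 35975 bases before Cd8a (71373427 to 71379171, plus strand), and Cd4 lies on the minus strand from 124864693 to 124888209. Cd2 is on chromosome 3 (101275908 to 101287939, minus strand), Lck on chromosome 4 (129548344 to 129573641, minus strand), and Cd5 on chromosome 19 (10718143 to 10738974, minus strand). Each position covers the exons and introns of a protein-coding gene.

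The 250 bases before the transcription start are shown for 4 of the genes, because members of a complex that are higher together invite a look at what their promoters share. The sequences come from RefSeq (GRCm38.p6), 5′ to 3′ on the strand of each gene. Capitals mark the E-box CACCTG, searched on both strands and so also as CAGGTG.
Cd3d: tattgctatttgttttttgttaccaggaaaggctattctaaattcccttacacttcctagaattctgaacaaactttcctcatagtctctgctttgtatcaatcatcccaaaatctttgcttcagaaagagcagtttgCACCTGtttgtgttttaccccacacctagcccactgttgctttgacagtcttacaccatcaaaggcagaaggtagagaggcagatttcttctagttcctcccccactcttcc
Cd3g: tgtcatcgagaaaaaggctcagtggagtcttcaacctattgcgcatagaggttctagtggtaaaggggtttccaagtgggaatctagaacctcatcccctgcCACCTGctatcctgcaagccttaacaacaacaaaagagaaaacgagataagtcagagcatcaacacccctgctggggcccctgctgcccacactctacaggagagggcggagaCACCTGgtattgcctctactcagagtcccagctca
Cd247: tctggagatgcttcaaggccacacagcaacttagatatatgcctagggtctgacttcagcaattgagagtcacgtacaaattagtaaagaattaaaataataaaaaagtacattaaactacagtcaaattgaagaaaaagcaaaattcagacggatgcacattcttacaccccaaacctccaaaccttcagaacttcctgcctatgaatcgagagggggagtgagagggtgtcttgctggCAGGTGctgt
Cd8a: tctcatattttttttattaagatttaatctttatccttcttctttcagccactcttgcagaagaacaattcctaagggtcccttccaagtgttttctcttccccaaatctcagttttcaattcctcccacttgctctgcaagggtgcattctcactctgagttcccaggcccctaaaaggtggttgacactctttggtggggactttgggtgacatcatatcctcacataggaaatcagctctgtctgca

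They lie at chr9:44981536-44981785 for Cd3d, chr9:44980432-44980681 for Cd3g, chr1:165788431-165788680 for Cd247, and chr6:71373177-71373426 for Cd8a. The first base of the E-box lay 112 bases before the start of Cd3d and 10 bases before that of Cd247. Cd3g held 2 copies, at 148 and 35 bases, and Cd8a held none. The set of RefSeq promoters used here had 8 promoters for 7 of the genes, with 2 for Lck. It held no entry for Cd2, Cd4, or Cd8b1. The E-box was found in 5 of the 8 (Cd3d, Cd3g, Cd247, Cd5, and the proximal promoter of Lck), against 17.2% of 32851 promoters of the same length. The letters AGGAAG, the core of many ETS factor sites, were in 6 of 8 against 29.5%. A RUNX-type core, TGTGGT, was in 1 of 8 against 14%. The letters AGATAA were in 1 of 8 against 9.99%. TATAAA was in none, against 12.4%. These motifs were chosen after the sequences had been read and are a description of the letters.

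To ask how the receptor genes differed 2 days after anti-CD40, each gene was compared between the 3 anti-CD40 and 6 control mice with limma on log2(FPKM + 0.1), with Benjamini-Hochberg adjustment over all 13807 genes and a threshold of 0.05. By this test, 9 of the 10 genes were higher after anti-CD40, none was lower, and Cd4 did not pass. The background was high, as 45.1% of all genes tested passed in either direction and 23.5% passed as higher. In 8 of the 10 genes every anti-CD40 mouse lay above every control mouse in FPKM, though only narrowly for Cd3e. This was also the case for 22.7% of all genes tested. The median log2 fold change of the 10 genes was 1.45, beside 0.0056 over all genes tested. Fold changes on this scale understate the change of genes near 0.1 FPKM, so the fold between group means is also given. An exact permutation test over the 84 ways to choose 3 of 9 mice (2-sided, without adjustment over the 10 genes) can give no p under 0.0238. The labels do not say that the mice were littermates or otherwise related, and p-values measure the spread between these mice. In bulk liver, more cells of a type and more RNA per cell cannot be told apart.

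**Figure D1:**
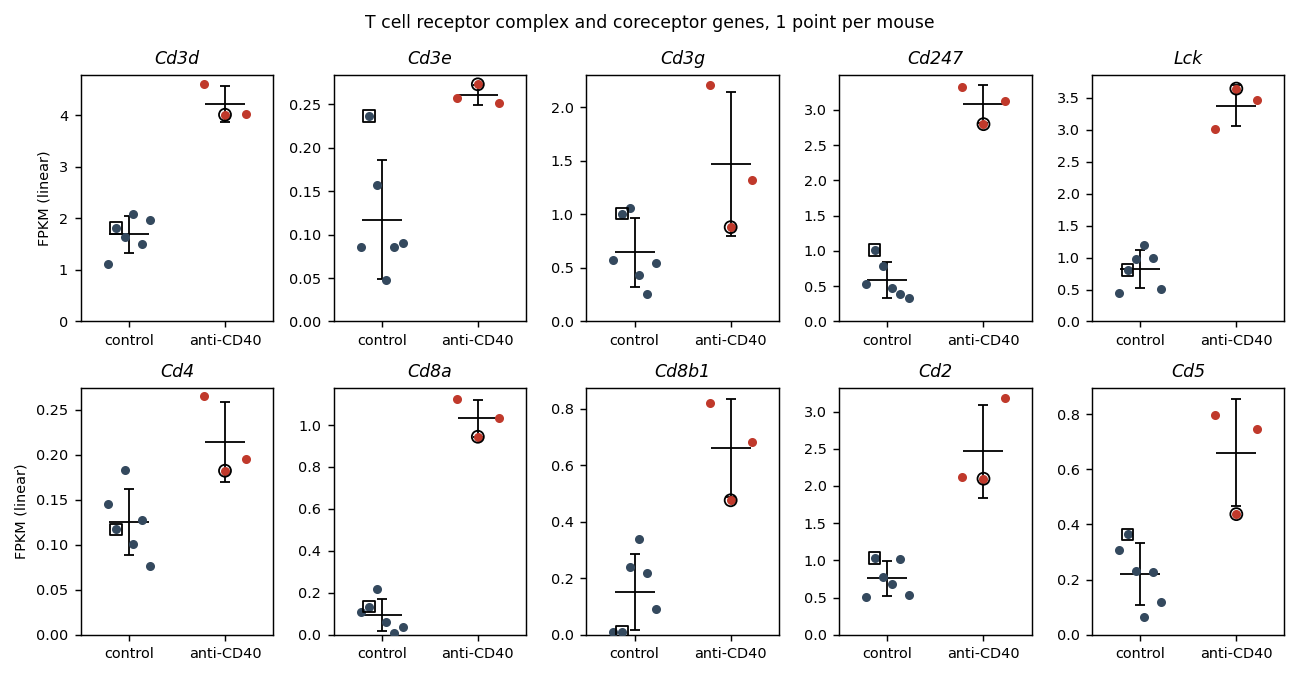
FPKM of each of the 10 genes (vertical axis, linear, starting at 0) in 6 control mice (dark points) and 3 anti-CD40 mice (red points), with the mean as a horizontal bar and the SD as error bars. The open circle marks anti-CD40 mouse 5 and the open square control mouse 4. Groups overlap for Cd3g and Cd4 and are separate for the other 8 genes.

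Among the CD3 chains, Cd3d was the most strongly supported. It measured 4.62, 4.01, and 4.03 FPKM in anti-CD40 mice 2, 5, and 9, and the controls ranged from 1.12 to 2.09 with a median of 1.72. All 3 anti-CD40 mice were thus well above every control. The means were 4.22 ± 0.343 (SD, n = 3) and 1.69 ± 0.351 (SD, n = 6) FPKM, a 2.5-fold difference, with a log2 fold change of 1.30 (SE 0.19, limma adjusted p = 2.84e-04; exact permutation p = 0.0238).

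Cd3e, which encodes the epsilon chain that pairs with both of the other CD3 chains, was sparse. It measured 0.257, 0.273, and 0.251 FPKM after anti-CD40, whereas the controls ranged from 0.0477 to 0.236 with a median of 0.0881. The anti-CD40 mice were close together and just above control mouse 4, the highest control. The log2 fold change was 0.78 (SE 0.27, limma adjusted p = 0.0362; exact permutation p = 0.0238), and the means differed 2.22-fold. These values stand for only 6 to 7 reads per anti-CD40 liver and 1 to 6 per control liver, and the call was lost in 10 of 18 alternative analyses. Anti-CD40 mouse 9 and control mouse 4 each had 6 inferred reads, so only the value of 1 read set them apart. In reads, the groups touched.

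Cd3g varied most among the anti-CD40 mice. Mice 2, 5, and 9 had 2.21, 0.881, and 1.32 FPKM, and controls ranged from 0.259 to 1.06 with a median of 0.560. Mouse 5 lay below control mice 4 and 7, so the groups overlapped. Cd3g had a log2 fold change of 1.1 (SE 0.39, limma adjusted p = 0.0424), the exact permutation test gave p = 0.0714, and the call was lost in 8 of 18 alternatives.

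Cd247, whose zeta chain serves the T cell receptor and also activating receptors of NK cells, was separated more widely. It was 3.32, 2.80, and 3.13 FPKM in mice 2, 5, and 9, whereas controls had 0.337 to 1.01, with a control median of 0.503. The lowest anti-CD40 mouse was far above control mouse 4, the highest control. The means were 3.08 ± 0.266 (SD, n = 3) and 0.589 ± 0.259 (SD, n = 6), 5.24-fold apart, with a log2 fold change of 2.28 (SE 0.28, limma adjusted p = 1.06e-04; exact permutation p = 0.0238). The deposited table gives Cd247 the same position as Pou2f1, a broadly expressed transcription factor gene (chromosome 1, 165788681 to 166002634), and in GENCODE M21 the genes share 12124 bases on opposite strands. The strand setting of the counting is not given in the sources used here. Pou2f1 had its own values, 1.78 ± 0.203 (SD, n = 3) and 1.52 ± 0.153 (SD, n = 6) FPKM, and did not pass (log2 fold change 0.21, limma adjusted p = 0.231). Whether reads were shared between the genes was not tested.

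Lck, the kinase that starts signaling, was 3.02, 3.64, and 3.47 FPKM in mice 2, 5, and 9. Controls ranged from 0.448 to 1.19 with a median of 0.892, and no control came near the anti-CD40 mice. The means of 3.38 ± 0.324 (SD, n = 3) and 0.820 ± 0.294 (SD, n = 6) differed 4.12-fold, with a log2 fold change of 1.98 (SE 0.28, limma adjusted p = 2.26e-04; exact permutation p = 0.0238). Lck rested on 125 to 142 reads per liver after anti-CD40 and on 16 to 38 per control liver.

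Of the coreceptor genes, both CD8 chains passed the test and Cd4 did not. Cd8a, the alpha chain found in both forms of CD8, was 1.12, 0.944, and 1.03 FPKM after anti-CD40. Controls ranged from 0.01, the lowest value the table gives, in mouse 11 to 0.216 in mouse 7, with a median of 0.0846. The anti-CD40 mice were tightly grouped, and each was far above the highest control. The means, 1.03 ± 0.0888 (SD, n = 3) and 0.0946 ± 0.0749 (SD, n = 6), differed 10.9-fold, with a log2 fold change of 2.63 (SE 0.32, limma adjusted p = 8.96e-05; exact permutation p = 0.0238). This exceeded the log2 fold change of 97.1% of all genes tested. The control mean lay under the level for testing, which Cd8a reached only through the anti-CD40 mice. The rank is therefore a description. A total of 187 reads in the 3 anti-CD40 mice compared with 32 in the 6 controls.

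Cd8b1, which encodes the beta chain of the conventional T cell form of CD8, measured 0.820, 0.476, and 0.681 FPKM in mice 2, 5, and 9. Control mice 3 and 4 were at the lowest value of 0.01, the control median was 0.155, and the highest control, mouse 8, had 0.339. The groups did not overlap, although mouse 5 was close to mouse 8. Cd8b1 had a log2 fold change of 1.77 (SE 0.47, limma adjusted p = 0.0107; exact permutation p = 0.0238) on 50 reads after anti-CD40 and 20 in controls.

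Cd4 was low in every liver. It measured 0.265, 0.182, and 0.196 FPKM after anti-CD40 and 0.0767 to 0.183 in controls, with a median of 0.123. Mice 2 and 9 lay above all controls, and mouse 5 lay just below control mouse 7, each of these on 11 reads. The means of 0.215 ± 0.0444 (SD, n = 3) and 0.125 ± 0.0368 (SD, n = 6) differed 1.71-fold. Cd4 did not pass over all genes (log2 fold change 0.49, SE 0.22, limma adjusted p = 0.0900), while the exact permutation test of Cd4 alone gave p = 0.0476. Cd4 rested on 39 reads in the 3 anti-CD40 mice and 42 in the 6 controls. It passed after rescaling without the Saa genes (limma adjusted p = 0.0179) and with eBayes without a trend (limma adjusted p = 0.0359).

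**Figure D2:**
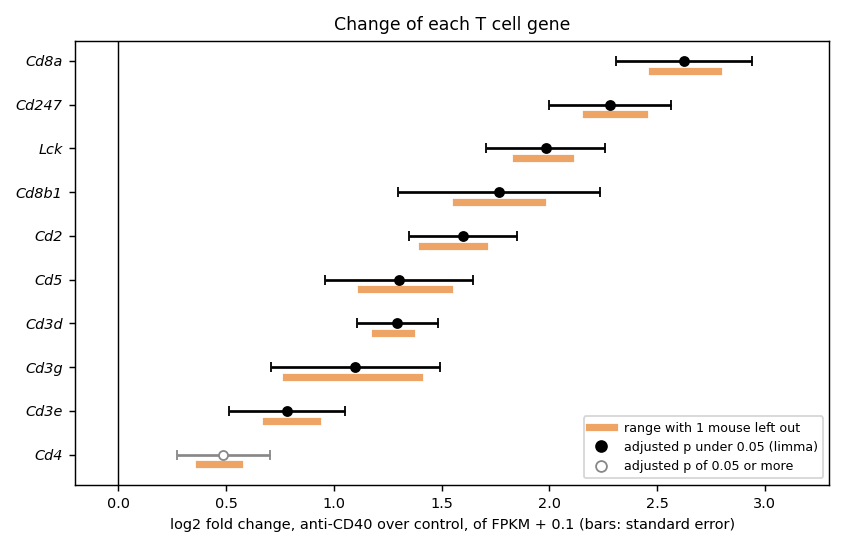
Log2 fold change of each gene between anti-CD40 and control mice (horizontal axis, FPKM + 0.1) with its standard error, filled where the limma adjusted p was under 0.05 and open where it was not. Orange bars span the values obtained with any 1 mouse left out, which stayed above 0 for all 10 genes, from Cd4 at the bottom (0.49) to Cd8a at the top (2.63).

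The accessory receptors of the group were both higher. Cd2 was 2.117, 2.097, and 3.184 FPKM after anti-CD40, and the controls ranged from 0.503 to 1.03 with a median of 0.729. Mouse 9 was the highest, and all 3 were above control mouse 4. Its log2 fold change was 1.60 (SE 0.25, limma adjusted p = 4.64e-04; exact permutation p = 0.0238), a 3.26-fold difference in means. Cd5 was 0.799, 0.437, and 0.746 FPKM after anti-CD40 and 0.0629 to 0.364 in controls, with a median of 0.230. Here mouse 5 came nearest to the controls, but the groups stayed apart. Cd5 had a log2 fold change of 1.30 (SE 0.34, limma adjusted p = 0.0104; exact permutation p = 0.0238). The annotated 3′ end of Cd5 in the table falls 1027 bases short of GENCODE M21 and that of Cd3d 287 bases short, and how many 3′ reads lie beyond them was not tested.

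Without anti-CD40 mouse 2, the count of genes called fell from 9 to 5, leaving Cd3d, Cd247, Cd8a, Cd2, and Lck. These same 5 genes were called in every alternative in which they were tested. Without mouse 2, Cd8b1 and Cd5 narrowly missed the threshold (limma adjusted p = 0.0516 and 0.0540), at log2 fold changes of 1.61 and 1.17. The calls of Cd3e and Cd3g also went when mouse 9 or control mouse 3, 8, 11, or 12 was left out, and that of Cd3e when mouse 5 was. In these fits, mouse 2 left out included, the limma adjusted p ran from 0.0580 to 0.101 for Cd3e and from 0.0615 to 0.197 for Cd3g, with log2 fold changes of 0.68 to 0.80 and 0.78 to 1.13.

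To compare the genes with each other, the log2 ratio of 2 genes was formed within each mouse, with 0.1 added to both FPKM. For 8 pairs, the difference between groups was tested by the exact permutation test (2-sided) with Benjamini-Hochberg adjustment over the 8. The ratio of Cd8a to Cd4 was 1.85 ± 0.1003 (SD, n = 3) after anti-CD40 and −0.28 ± 0.435 (SD, n = 6) in controls, with no overlap (difference 2.14, exact permutation p = 0.0238, adjusted p = 0.0952). Cd247 relative to Cd3e was 3.14 ± 0.161 (SD, n = 3) against 1.64 ± 0.281 (SD, n = 6), again with no overlap (difference 1.499, exact permutation p = 0.0238, adjusted p = 0.0952). Lck and Cd2 relative to Cd3e differed by 1.198 and 0.81 (exact permutation p = 0.0476 and adjusted p = 0.0952 for each), and both overlapped between groups. The ratio of Cd8a to Cd8b1 differed by 0.86 (exact permutation p = 0.286, adjusted p = 0.327), with controls spread from −1.53 to 1.09. Cd3d, Cd3g, and Cd5 relative to Cd3e differed by 0.51, 0.32, and 0.52 (exact permutation p = 0.167, 0.405, and 0.119). Thus 4 of 8 pairs had an unadjusted p under 0.05 and 0 of 8 passed after adjustment. The smallest p of the exact permutation test is 0.0238. A single pair therefore could not pass adjustment over 8 pairs, however far apart its groups lay. No gene was shown to differ more than its partner, and for a single pair the test could not show it. A pseudocount of 1 gave 6 pairs past the threshold, and rescaling without the Saa genes and quantile normalization gave 4 each. A pseudocount of 0.01 gave 0. With it, Lck and Cd2 relative to Cd3e differed by only 0.863 and 0.47 (exact permutation p = 0.167 and 0.238). Cd8a to Cd4 and Cd247 to Cd3e differed by 2.94 and 1.22, still with no overlap (exact permutation p = 0.0238 for each). The differences relative to Cd3e thus depended on the pseudocount.

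The genes were also set against Ptprc, which encodes CD45, carried by all white blood cells. Ptprc itself measured 12.2, 10.4, and 9.79 FPKM after anti-CD40 and 1.14 to 3.14 in controls (log2 fold change 2.60, SE 0.29, limma adjusted p = 5.47e-05). This comparison was added after the values had been seen and is given without a test. Relative to Ptprc, 6 of the 10 genes (Cd3d, Cd3e, Cd3g, Cd4, Cd2, and Cd5) were lower with no overlap between the groups, as were 90.2% of all genes tested. The difference was −1.30 for Cd3d, −1.81 for Cd3e, and −2.11 for Cd4 on the log2 scale. For Cd8a it was 0.027, with anti-CD40 mice from −3.33 to −3.13 inside the control range of −3.79 to −2.76. Cd247, Lck, and Cd8b1 had differences of −0.31, −0.62, and −0.83 and overlapped between groups. With a pseudocount of 0.01 in place of 0.1, the difference for Cd8a was 1.03 and that for Cd4 was −1.91. With a pseudocount of 1, it was −1.21 for Cd8a, so the place of Cd8a relative to Ptprc depended on the pseudocount. All 10 genes were then lower with no overlap. The share of all genes tested, 90.2% at a pseudocount of 0.1, was not computed at 1, so this count is not specific to the T cell genes.

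**Figure D3:**
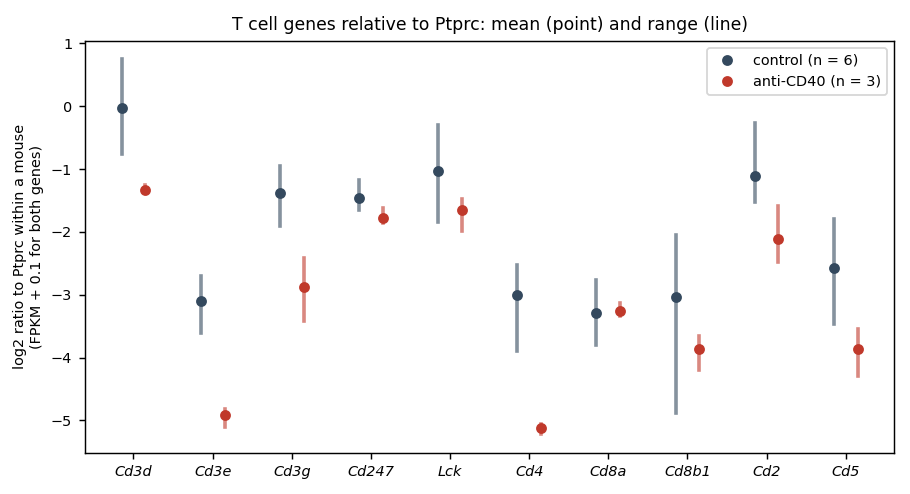
Log2 ratio of each gene to Ptprc within a mouse (vertical axis, FPKM + 0.1 for both genes), as the mean (point) and the lowest to highest mouse (line) of 6 control (dark) and 3 anti-CD40 mice (red). The lines are separate for Cd3d, Cd3e, Cd3g, Cd4, Cd2, and Cd5, and the red line of Cd8a lies within the dark one.

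Behind the receptor, Lck phosphorylates the CD3 and zeta chains, the kinase Zap70 binds them, and Zap70 in turn phosphorylates the adaptors Lat and Lcp2 (SLP-76), on which phospholipase C assembles. Of 30 genes of this signaling path, 27 were tested, of which 22 were higher, 1 was lower, and 4 did not pass, with a median log2 fold change of 1.45. Over all genes tested, 23.5% passed as higher. The list includes Ptprc, carried by all white blood cells, and how much of the count came from T cells was not tested. Lat was 2.11, 1.68, and 2.40 FPKM after anti-CD40 and 0.456 to 0.926 in controls (log2 fold change 1.41, limma adjusted p = 5.05e-04). Lcp2, which myeloid cells also express, had a log2 fold change of 1.76 (limma adjusted p = 1.77e-04). The largest differences after Ptprc were in the adaptors Sit1 (2.40), Sla (2.34), and Sh2d2a (2.08).

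Zap70 was the gene that fell. It measured 15.6, 19.99, and 24.8 FPKM in anti-CD40 mice 2, 5, and 9 and 34.8 to 80.1 in controls, with a median of 69.8. Every anti-CD40 mouse was below every control. Lck, Cd3d, and Cd3e showed the reverse in the same livers, and Cd3g was higher on average but overlapped between groups. Its log2 fold change was −1.58 (SE 0.27, limma adjusted p = 8.85e-04), and it stayed between −1.75 and −1.22 in 19 alternatives. Reads could not be inferred for Zap70. GENCODE M21 places a transcribed processed pseudogene, Gm18828, inside it on the opposite strand (chromosome 1, 36764863 to 36765874), and whether the row counts only reads of the kinase was not tested. The 4 genes that did not pass were Fyn, the other Src family kinase of T cells, with a log2 fold change of 0.05, Csk, which restrains Lck, with −0.11, Plcg1 with 0.60, and Prkcq with 0.30. Ubash3a, Themis, and Trat1 were below the level for testing, and Trat1 was listed at the lowest value in all 9 mice. The constant regions of the receptor chains themselves (Trac, Trbc1, Trbc2, Trdc, Tcrg-C1, and Tcrg-C2) were looked up by these names. Of the 6, 0 had values that could be used.

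Beside 23.5% higher among all genes tested, 12 of 14 accessory receptors of T cells were higher, none was lower, and Icos and Cd226 did not pass. The median log2 fold change was 1.75. The sialomucin Spn (CD43) was 5.47, 4.56, and 5.42 FPKM against 0.318 to 0.669 (log2 fold change 3.26), followed by Ly9 (2.77), the early activation marker Cd69 (2.71), and Cd48, the ligand of CD2 (2.62). All of these 4 are also found on other white blood cells. Cd28, the costimulatory receptor of T cells, was 0.482, 0.571, and 0.576 FPKM against 0.0509 to 0.129 in controls (log2 fold change 1.80, limma adjusted p = 8.02e-05); it was named after its values were seen.

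Of 16 genes of T cell lineage and homing, 15 were tested, of which 9 were higher, 2 were lower, and 4 did not pass, with a median of 0.65. Among all genes tested, 45.1% passed in either direction and 23.5% as higher. No gene of this list was lower, and 12 were higher, after rescaling without the Saa genes, and none was lower without mouse 9 (9 higher) or without mice 5 and 4 together (8 higher). The lymph node homing receptor Ccr7 (log2 fold change 3.46) was higher, as were Runx3 (2.75), a factor of CD8 T cells, and Eomes (2.03), a factor of cytotoxic T cells and NK cells. Zbtb7b, the factor that directs T cells to the CD4 lineage, was 6.16, 7.23, and 7.03 FPKM against 7.75 to 9.89, a log2 fold change of −0.37 (limma adjusted p = 0.0297) with no overlap. This call was lost after rescaling without the Saa genes (log2 fold change −0.0049, limma adjusted p = 0.976), without mice 5 and 4 together (limma adjusted p = 0.0549), and without mouse 2, 5, 9, or control mouse 3 (limma adjusted p = 0.0514 to 0.136). Foxp3, the factor of regulatory T cells, did not pass (3.84 ± 0.130, SD, n = 3, against 2.82 ± 0.685, SD, n = 6; limma adjusted p = 0.0805), nor did Gata3, Klf2, or S1pr1. Tcf7 was below the level for testing.

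**Figure D4:**
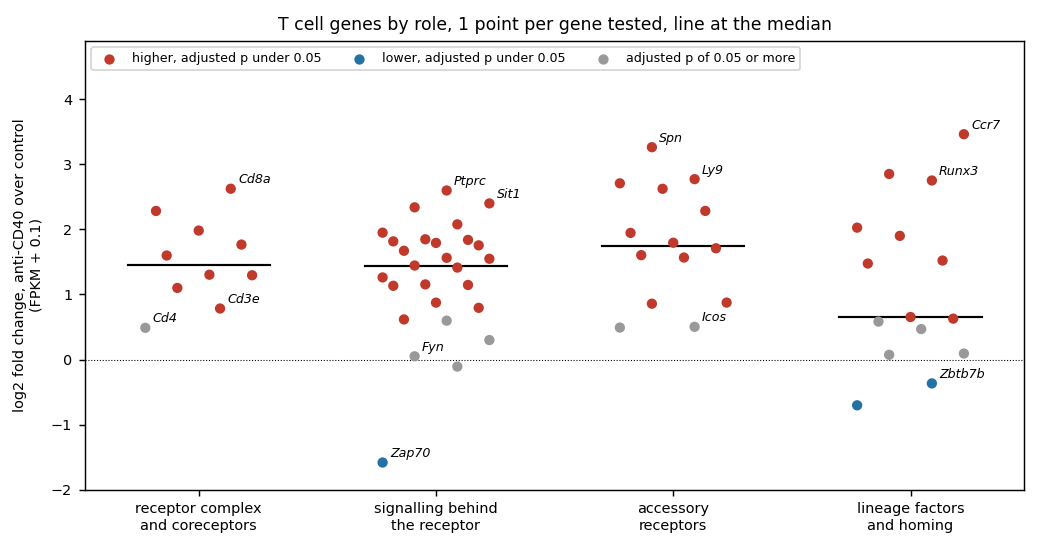
Log2 fold change (vertical axis, FPKM + 0.1) of each tested gene of the receptor complex and coreceptors, the signaling path, the accessory receptors, and the lineage and homing genes, colored by direction where the limma adjusted p was under 0.05 and gray where it was not. Lines mark the medians of 1.45, 1.45, 1.75, and 0.65, and Zap70 (−1.58) lies below all other points.

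Genes that mark other cells able to express some of the 10 moved as well, beside 45.1% of all genes tested that passed in either direction and 23.5% as higher. All 8 tested NK cell markers of 10 listed were higher (median log2 fold change 2.11), with summed levels of 87.2 to 112 FPKM after anti-CD40 and 7.02 to 21.9 in controls. Most of the anti-CD40 sums came from Gzma, at 57.7 to 79.6 FPKM, against 1.58 to 10.1 in controls. The NK receptor gene Ncr1 was 0.825, 0.420, and 1.19 FPKM against 0.0383 to 0.333, and Gzma (log2 fold change 4.47) and Klrd1 (2.34) rose with it. Klra8 was at the lowest value in all 3 anti-CD40 mice and in 5 of 6 controls and was not tested. Of 7 tested markers of Xcr1-type dendritic cells, the class that can carry CD8 alpha, 5 were higher, 1 was lower (Cadm1), and 1 did not pass (Xcr1, log2 fold change −0.05, limma adjusted p = 0.896). The sums of this list were 43.7 to 47.5 FPKM against 24.3 to 27.9. In them Irf8 had means of 24.0 and 5.12 FPKM and Cadm1 of 9.68 and 16.2. Of 7 plasmacytoid dendritic cell markers, 4 were higher and 3 did not pass (151 to 171 against 61.6 to 141 FPKM). Most of these sums came from Bst2 and Irf7, with means of 91.9 and 52.5 FPKM after anti-CD40 and 68.1 and 12.3 in controls. All 9 tested B cell markers were higher (35.8 to 52.9 against 2.36 to 9.996 FPKM). All 7 tested neutrophil markers were higher. Cxcr2, Ltf, and Ngp, with control means of 0.0556, 0.0180, and 0.0902 FPKM, reached the level for testing only through the anti-CD40 mice. So did Cd79a and Blk of the B cell markers and Klrb1b of the NK cell markers. The neutrophil genes Mpo and Elane were below that level and overlapped between groups. Of 10 macrophage and monocyte markers, 3 were higher, 6 were lower, and 1 did not pass. Of 6 hepatocyte markers, 5 were lower and 1 did not pass, with sums of 4483 to 5255 FPKM against 12392 to 22631. Of 12 pancreatic genes 1 was higher and 11 did not pass, and none of 6 tested erythroid genes passed. The part of these other cells in the values of the T cell genes was not tested.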

How the data were processed

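Liver RNA of 9 mice was converted to 3′ libraries (QuantSeq FWD) and sequenced on a NextSeq instrument. Per the labels and methods, the authors used STAR with mm10, then Cufflinks and Cuffdiff. The deposited values are 1 FPKM per gene and mouse, with a floor of 0.01. The annotation and any filter are not given in the sources used here, and 3′ reads do not scale with transcript length, so FPKM levels were not compared between genes. The 15 genes with a failed estimate were left out, 0 columns lacked a sample, and mice were grouped by their labels. Genes with a mean of at least 0.1 FPKM were tested on log2(FPKM + 0.1) with limma 3.58.1 in R 4.3.3 (eBayes with a trend, Benjamini-Hochberg). The mean was taken over all 9 mice, so a gene under this level in controls could be tested through its anti-CD40 values alone. Reads were inferred as the smallest whole numbers, up to 300, that fit the deposited FPKM steps within 0.02 reads. This worked in every mouse for 88.3% of 4665 low genes and for 9 of the 10 members, but not for Cd247, Zap70, or Ptprc. They cover counting error only.

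The members and lists were chosen with earlier results of these data known. Named were all 10 members; Zap70, Lat, Lcp2, and Ptprc; of the signaling, accessory, and lineage lists up to 4 of the largest rises and 4 of the largest falls without overlap; and for other cells the gene listed first plus up to 2 of the highest, of which only those of cells able to express members are given. Some genes the rule takes are not reported here. In simulated data for anti-CD40 against control, with 200 of 13807 genes changed, 41% were recovered at a log2 change of 1 and 87% at 2, with 6 false calls. In the real data 45.1% of all genes tested passed, far more than were changed in the simulation. Its recovery rates and false calls therefore do not carry over to the real data. Alternatives were other pseudocounts (1 and 0.01), testing without a filter or from a mean of 1 FPKM, quantile and median of ratios scaling, Saa genes left out with rescaling, eBayes without a trend or robust, a fold of at least 2, and each mouse left out. Leaving out mice 5 and 4 together and the ratios to Ptprc were added after seeing the data. Python 3.11.15 with numpy 2.4.6, pandas 2.3.3, and matplotlib 3.10.9 did the rest.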

Additional observations from a re-analysis of the deposited data

How the results depend on the processing

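Of 10 genes, 9 were called; the count was 4 with a mean of at least 1 FPKM, where only 4 were tested and all were called, and 5 to 9 with 1 mouse left out, the lowest without anti-CD40 mouse 2. Cd4 was called only when FPKM were rescaled without the Saa genes and with eBayes without a trend, where all 10 passed. Rescaling without the Saa genes moved the median of all genes by 0.34 (log2) and gave 5592 higher and 1649 lower calls (77.2% higher), against 3240 and 2990 (52.0%). Of all genes, 6230 were called, 3142 with a fold of at least 2, and 4814 to 6830 with 1 mouse left out. At a mean of at least 1 FPKM, where fewer genes are tested, the calls were 11 of the signaling, 4 of the accessory, and 6 of the lineage and homing genes, against 23, 12, and 11; a fold of at least 2 left 7 of the last. With 1 mouse left out these 3 lists gave 22 to 23, 10 to 13, and 8 to 12. Pairs past the threshold rose from 0 to 6 with a pseudocount of 1, 4 with quantile normalization, and 4 without the Saa genes, and the ratio of Cd3g to Cd3e turned to −0.0193 with a pseudocount of 0.01; the cause was not tested. With 1 control left out, 0 pairs passed, but the smallest p is 0.0357 there. Most pairs would have to reach that p for any to pass adjustment. With 1 anti-CD40 mouse left out the smallest p is 0.0714, so no pair was tested there. No paired analysis was possible because the groups share no mouse numbers. The fewest reads over all controls were 17 for Cd3e, 20 for Cd8b1, 32 for Cd8a, and 42 for Cd4, and the part of depth in which calls held was not tested.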

Other observations

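The anti-CD40 mice did not rank alike across the 10 T cell genes. Mouse 2 was the highest of the 3 in 7 genes and mouse 5 the lowest in 8, including Cd3g, Cd8b1, and Cd5, and mouse 5 was the liver with pancreatic transcripts. The 10 genes summed to 18.5, 15.7, and 18.1 FPKM in mice 2, 5, and 9. Among controls the sums ran from 3.83 in mouse 3 to 6.53 in mouse 4, the liver with the highest erythroid sum, and mouse 4 was the highest control in 4 genes. The pancreatic genes were 0.117% of the summed FPKM of mouse 5. Over the 9 genes with inferred reads, 475, 396, and 411 reads were found in mice 2, 5, and 9 and 85 to 152 in each control.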
